A study of Homo sapiens with 2 samples.

Results

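The nuclear-encoded mRNAs of mitochondrial proteins were examined for YB-1 binding sites in HEK293T cells, a human embryonic kidney line. The family was chosen by gene symbol from the GENCODE release 44 annotation and holds 258 of 20028 protein-coding genes. It covers the mitochondrial ribosomal proteins (MRPL and MRPS), the subunits and assembly factors of the respiratory chain (NDUFA, NDUFB, NDUFC, NDUFS, NDUFV, SDHA to SDHD, UQCR, UQCC, CYC1 and the COX4 to COX8 subunits), the ATP synthase (ATP5), the import machinery (TIMM and TOMM) and the SLC25 carriers. The data were 2 replicates (Rep.A and Rep.B) of YB-1 PAR-CLIP from wild-type cells given 100 µM 4-thiouridine for 16 h, with no second condition and no control library. In this method the thiouridine is crosslinked to bound protein by UV light and is then read as C in place of T, the bound RNA being trimmed with RNase T1, which cuts after G. The RNA is labelled as cytoplasmic, and it was recovered with an antibody raised in rat against a peptide from the C-terminal end of YB-1.

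YB-1 is a cold shock domain protein that coats mRNA in the cytoplasm and influences its translation and stability. Almost all proteins of the mitochondrion are made from nuclear genes on cytosolic ribosomes and are then imported through the TOM complex of the outer membrane and the TIM complexes of the inner membrane. The mitochondrial ribosome translates the few mRNAs of the mitochondrial genome, so that complexes I, III and IV and the ATP synthase are each assembled from subunits of both genomes, while complex II comes from nuclear genes alone. The SLC25 carriers move metabolites, nucleotides and cofactors across the inner membrane.

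The authors called clusters of reads with T-to-C changes in each replicate separately, and the tables used here hold 1382 of them for Rep.A and 2011 for Rep.B, not the full numbers that the study states. Clusters of Rep.A and Rep.B that overlapped on one strand by 1 base or more were joined into a reproducible region, of which there were 1112. The coverage of a cluster is its mean number of reads per base, not scaled for depth. T-to-C changes are counted only at the T bases where the authors' filter kept them as specific to the method. Other T bases may also hold reads with such changes. Over the 1112 regions the Rep.B coverage was a median of 2.60 times that of Rep.A. The total depth of the libraries is not in the cluster tables, and neither is mRNA abundance, so a low number of clusters on an mRNA and a low number of its copies in the cell cannot be told apart. Intervals for shares are 95% Wilson intervals and cover counting error only.

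The strongest site of the family was in NDUFA12, which encodes an accessory subunit of complex I. Other reproducible sites were called in genes of the mitochondrial ribosome, the ATP synthase γ subunit, an import receptor and carriers for glycine and NAD. The sequences at the import receptor and at the NAD carriers also occur elsewhere in the genome, and reads of identical copies cannot be told apart. Except for SLC25A51 and SLC25A52, the sequences of the reproducible sites are given first, so that the tetramers named below can be read from them. They are written 5′ to 3′ on the RNA strand with T for U, on hg38, and capitals mark each CATC and each CACC, the tetramers searched for. Both tetramers were looked for on the RNA strand only, and neighbouring matches can share a base.

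Of the mitochondrial ribosome and complex I, these are the reproducible sites, from MRPL35 (chr2:86211500-86211523, plus strand), MRPL37 (chr1:54212565-54212587, plus), MRPL38 (chr17:75899165-75899190, minus), MRPS2 (chr9:135504636-135504656, plus), MRPS21 (chr1:150294313-150294334, plus) and NDUFA12 (chr12:94971443-94971466, minus).
MRPL35: cacacttaaCATCtaacaCACCag
MRPL37: acgaccaCACCgccttcaaccag
MRPL38: actccgtCACCtaCATCttcCACCag
MRPS2: tccagcaaaaataaaactcag
MRPS21: ccctttctcCATCATCctttag
NDUFA12: atccCACCttcaaCACCttacaag

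Of the ATP synthase, the import receptor and the glycine carrier, these are the reproducible sites, from ATP5F1C (chr10:7800058-7800079 and chr10:7802336-7802358, plus), TOMM20 (chr1:235111515-235111537, minus) and SLC25A38 (chr3:39391587-39391608, plus).
ATP5F1C, first site: ccCATCttttcccttaataccg
ATP5F1C, second site: ccaaCATCATCtactactctctg
TOMM20: ttaacagcttccttccctttctg
SLC25A38: gtCACCtatcactgtaatcaag

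The reproducible sites of SLC25A51 (chr9:37888469-37888490, minus) and SLC25A52 (chr18:31760580-31760601, minus) are 22 bases long, are identical to each other and hold 1 CACC.

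In all, 11 of the 258 genes carried an exonic region that was reproducible, or 4.26% (2.40 to 7.47), beside 2.87% of all protein-coding genes (575 of 20028). Rep.A alone gave a cluster in 11 genes of the family, beside 3.28% of all protein-coding genes. Rep.B alone gave one in 20 genes, or 7.75%, beside 4.06% of all protein-coding genes. Every gene with a Rep.A cluster was therefore found again, and 9 genes had a cluster in Rep.B only. The other 238 genes had no cluster in either replicate. No gene of the family had a cluster in an intron alone, where an exon of any annotated transcript counted as exon. The 3 readthrough genes that the rule takes in (ATP5MF-PTCD1, NDUFC2-KCTD14 and TIMM23B-AGAP6) had none, and neither had SLC25A6, whose second copy on chromosome Y was left out.

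By complex, the reproducible regions fell in the mitochondrial ribosome, complex I, the ATP synthase, the TOM complex and the carriers. Genes were put in these groups by the start of their symbol, so a group can hold genes that are no subunit of the complex. The readthrough genes NDUFC2-KCTD14, ATP5MF-PTCD1 and TIMM23B-AGAP6 are counted with complex I, the ATP synthase and the TIM complexes. The large ribosomal subunit had 3 of 49 genes and the small subunit 2 of 29. Complex I had 1 of 40 genes, the ATP synthase 1 of 20, the TOM complex 1 of 10 and the SLC25 carriers 3 of 48. Complex III and complex IV had clusters in Rep.B only, in 2 of 10 and 1 of 17 genes. No cluster was found in the 4 genes of complex II, the 17 of the TIM complexes, the 8 complex I assembly factors or the 6 complex III assembly factors. The upper limits of these shares of 0 were 49.0%, 18.4%, 32.4% and 39.0%, so groups of this size could not be ordered.

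**Figure D1:**
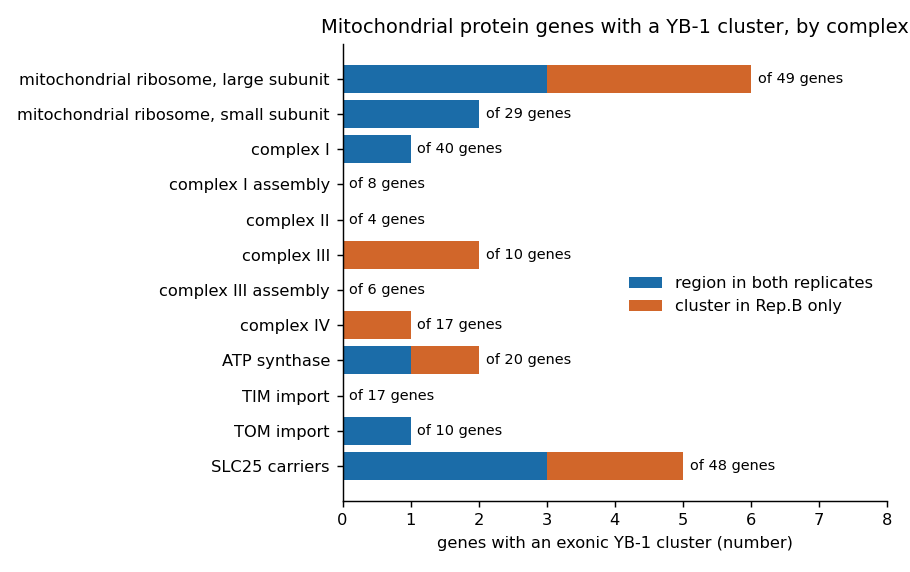
Number of genes in each group with an exonic YB-1 cluster, as bars, blue where a region was found in both replicates and orange where a cluster was found in Rep.B only, with the size of the group beside each bar. The large ribosomal subunit reached 6 of 49 genes and the carriers 5 of 48, while complex II, the TIM complexes and both groups of assembly factors had none.

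Exon and codon numbers of single sites are those of the Ensembl canonical transcript unless another is named, with the stop codon counted. NDUFA12 had the highest coverage of the family, 114.8 reads in Rep.A versus 256.4 in Rep.B. Among all 627 reproducible regions in exons of nuclear protein-coding genes it ranked number 3 in Rep.A and number 3 in Rep.B. The other 11 regions of the family reached at most 21.0 reads in Rep.A versus 67.0 in Rep.B, so NDUFA12 stood above them in both replicates. The site lies in exon 4 of 4, at codon 142 of 146, with its middle base 14 bases before the last base of the coding sequence. Of its 5 T bases, 1 was counted with T-to-C changes in each replicate. It holds CACC at 2 places and no CATC. A second NDUFA12 cluster, 124 bases upstream at codon 100 (chr12:94971565-94971591), was called in Rep.B only, with 32 reads and neither tetramer. Both sites lie outside the exons of the NDUFA12 transcript with the longest coding sequence.

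The 3 large-subunit proteins of the mitochondrial ribosome with a reproducible region differed in where the site lay. MRPL35 had 19.0 reads in Rep.A versus 67.0 in Rep.B, the second highest Rep.B value of the 12 regions. Its site lies in the 3′ UTR, 843 bases after the stop codon, and holds both tetramers. MRPL37 had 18 and 40 reads at codon 303 of 424, in exon 5 of 7 of the canonical transcript. That site has 2 T bases, the fewest of the family, and 1 of them was counted with T-to-C changes in each replicate. MRPL38 had 10.4 and 34.9 reads at codon 329 of 381, in exon 8 of 9, with CACC at 2 places and 1 CATC between them. The MRPL38 position also lies within a readthrough gene (ENSG00000267426) on the same strand, which the clusters do not separate from it.

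Of the small subunit, MRPS2 had 21.0 reads in Rep.A versus 36.0 in Rep.B. Its site lies in the 3′ UTR with its middle base 25 bases before the annotated end of the canonical transcript, and it holds neither tetramer. It does hold AATAAA, the hexamer best known as the polyadenylation signal, which was searched for after the sequence was seen and which 4 of 612 reproducible exonic regions of other nuclear genes hold (0.654%). MRPS21 had 14.0 and 27.0 reads, with CATC at 2 overlapping places. Its site is in exon 1 of the MRPS21 transcript with the longest coding sequence, 44 bases before the start codon. In the canonical MRPS21 transcript the same bases are the end of an intron, and the next base is the first of an exon. Which of these RNAs was bound was not tested.

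ATP5F1C encodes the γ subunit, the rotating central stalk of the ATP synthase, and was the only gene of the family with 2 reproducible regions. The first site had 11.0 reads in Rep.A versus 39.1 in Rep.B, at codon 205 of 299 in exon 6 of 10. The second had 13.0 and 47.0 reads, at codon 239 in exon 7, and lies 101 bases downstream in the spliced mRNA. Both hold CATC, the second at 2 overlapping places, and neither holds CACC. T-to-C changes were counted at 3 of 8 T bases of the first site in Rep.A and at 2 in Rep.B. At the second site they were counted at 1 and then 2 of 7 T bases. The 2 sites thus had similar values in each replicate, with the second the higher in both.

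TOMM20, the receptor of the TOM complex for proteins with a presequence, had the lowest coverage of the 12 regions, 4.91 reads in Rep.A versus 12.7 in Rep.B. Its site lies in the 3′ UTR, 538 bases after the stop codon, and holds neither tetramer. The same 23 bases occur at 1 other place in the genome, and this copy had more reads than TOMM20 in both replicates, as given in the closing section. SLC25A38, the glycine carrier used in heme synthesis, had 18 and 22.0 reads at codon 145 of 305, in exon 4 of 7. Its Rep.B value was 1.22 times its Rep.A value, the smallest rise of the 12 regions. T-to-C changes were counted at 2 of its 6 T bases in both replicates.

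SLC25A51 carries NAD into mitochondria, and SLC25A52 is its close paralog in a gene with a single exon. SLC25A51 had 8.95 reads in Rep.A versus 18.6 in Rep.B, and SLC25A52 had 12.9 and 28.8. Both sites are at codon 24 of 298 of the canonical transcripts, and in the SLC25A52 transcript with the longest coding sequence the codon is 34 of 308. The coding sequences differ at 21 of 894 bases, and 47 bases around the site are identical. The aligner setting of the study places a read that matches several positions at one of them at random, so the RNAs of the genes cannot be told apart at this site. SLC25A51 also lies within a readthrough gene (ENSG00000255872) on the same strand.

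**Figure D2:**
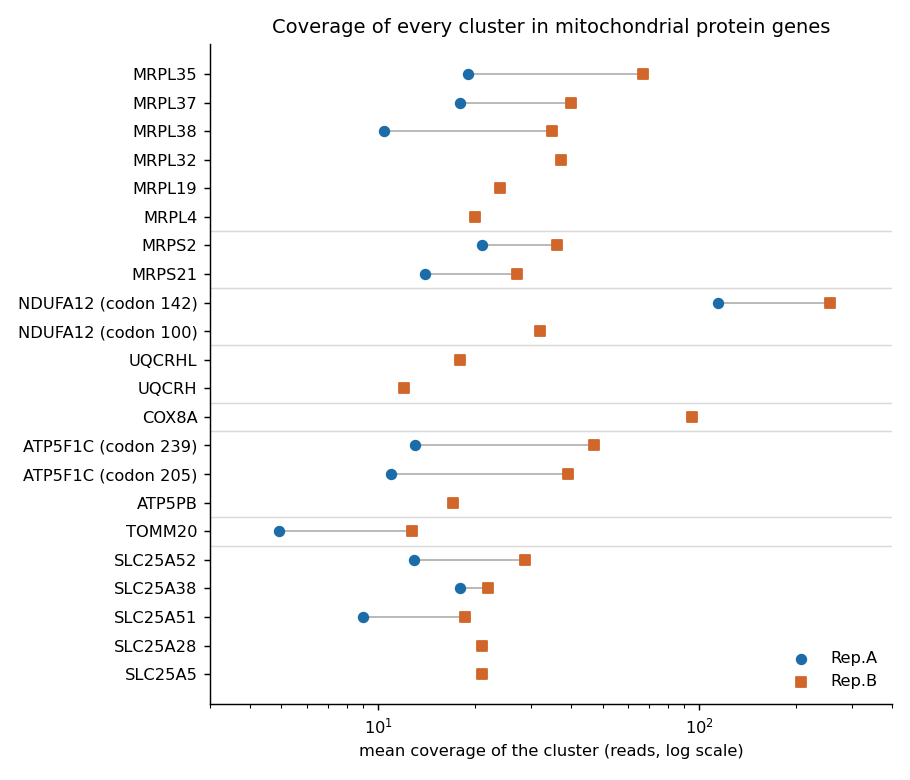
Mean coverage in reads, on a log scale, of every cluster in the family, with Rep.A as blue circles, Rep.B as orange squares, a grey line joining both values of a region, and grey rules between groups. NDUFA12 at codon 142 reached 114.8 and 256.4 reads, and COX8A at 95.0 reads was the highest of the 10 clusters found in Rep.B only.

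The 10 clusters that were called in Rep.B only lay in 10 genes, NDUFA12 among them, and ranged from 12 to 95.0 reads with a median of 21.0. These genes were named after their values were seen. COX8A, a small nuclear-encoded subunit of complex IV, had 95.0 reads in its 3′ UTR, 112 bases after the stop codon. Among the 315 Rep.B clusters in exons of nuclear protein-coding genes with no Rep.A cluster, it ranked number 16, where the median was 20 reads. It was the only one of the 22 Rep.B clusters of the family that did not end in G, the base after which RNase T1 cuts. A noncoding gene (ENSG00000256100) overlaps it on the same strand.

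In the mitochondrial ribosome, Rep.B alone gave MRPL32 (37.0 reads), MRPL19 (24.0) and MRPL4 (20), all of the large subunit. The MRPL19 site is in the 3′ UTR, where it overlaps a noncoding gene (ENSG00000270696). The MRPL32 and MRPL4 sites lie in introns of the canonical transcripts, 843 and 302 bases before the next exon, and count as exonic through other transcripts of these genes. ATP5PB, which encodes the peripheral stalk subunit b of the ATP synthase, had 17.1 reads at codon 144 of 257, with CATC at 2 places. SLC25A5, an ADP/ATP carrier, had 21.0 reads at codon 86 of 299, and SLC25A28, an iron carrier known as mitoferrin-2, had 21.0 reads 181 bases after its stop codon.

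Complex III was represented by UQCRH, the hinge protein, and UQCRHL, a gene nearly identical to it. UQCRH had 12 reads (chr1:46316556-46316578, plus) and UQCRHL had 18 (chr1:15807380-15807402, minus), both in Rep.B only and at codon 87 of 92 of the canonical transcripts. In the UQCRH transcript with the longest coding sequence the same bases are in the 3′ UTR, 98 bases after the stop codon. Their coding sequences differ at 4 of 276 bases, and 43 bases around the site are identical. Their shared sequence is given here because another copy of it decides whether the mRNA counts as found again.
UQCRH and UQCRHL: cccacaaactctttaacaacttg

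That copy lies in the pseudogene UQCRHP2, where the sequence was called in both replicates, with 4.00 reads in Rep.A versus 22.0 in Rep.B. The sum over the 3 places was 4.00 reads in Rep.A versus 52.0 in Rep.B. With the same sequence at another copy counted as found again, a choice made after the data were seen, the family had 13 genes and 14 regions found in both replicates. The share of all protein-coding genes under this rule was not computed, so the 13 genes have no background beside them. With clusters whose sequence has 1 copy in the genome, the family had 8 genes and 9 regions, or 3.10% of the 258 genes beside 2.23% of all protein-coding genes. The genes lost were SLC25A51, SLC25A52 and TOMM20. Only exact copies were counted for this. Among the sites kept, the second ATP5F1C site has a copy with 1 mismatch in ATP5F1CP1. The MRPS2 site has a copy with 1 mismatch outside annotated genes on chromosome 2.

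All 12 Rep.A clusters of the family were found again in Rep.B, or 100% (75.8 to 100), beside 85.9% of the Rep.A clusters in exons of all protein-coding genes. The 12 regions had the same first and last base in both replicates, as had 486 of the 612 reproducible regions of other nuclear genes (79.4%). In the other direction, 12 of 22 Rep.B clusters of the family had a Rep.A cluster, 54.5% (34.7 to 73.1), beside 67.2%. The median coverage of the 12 regions was 13.5 reads in Rep.A versus 35.5 in Rep.B, beside 14.0 and 37.0 in the regions of other nuclear genes. Coverage in Rep.B over Rep.A ranged from 1.22 for SLC25A38 to 3.62 for the second ATP5F1C site, with a median of 2.23, beside a median of 2.67 in other nuclear genes. Every region of the family was higher in Rep.B. On the log2 scale the coverage of the 12 regions in both replicates had a Pearson correlation of 0.900 and a Spearman correlation of 0.658, and without NDUFA12 of 0.684 and 0.556, all from the same 2 libraries.

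**Figure D3:**
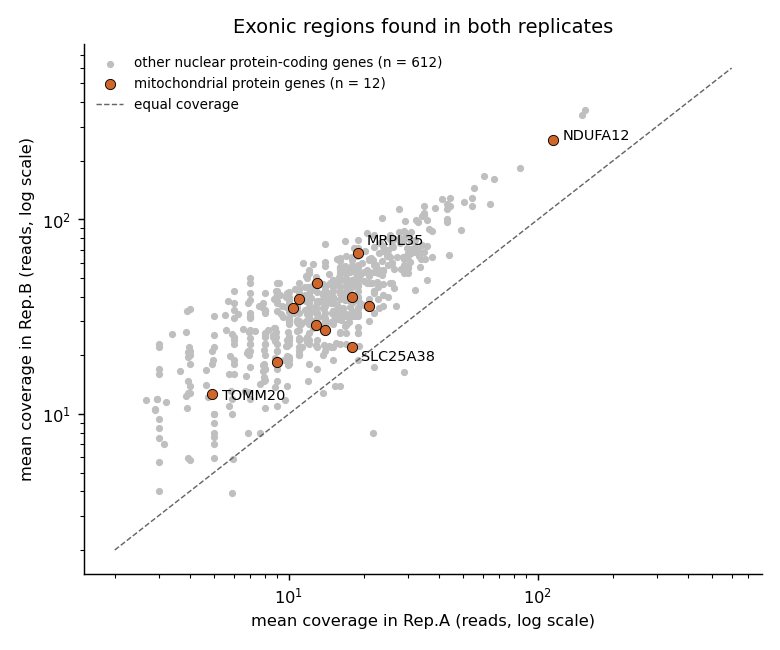
Mean coverage in Rep.B against Rep.A, both in reads on log scales, for the 12 reproducible regions of the family in orange and 612 regions of other nuclear protein-coding genes in grey, with a dashed line of equal coverage. All 12 lie above the line, SLC25A38 nearest to it, and NDUFA12 is set apart from the other 11 in both replicates.

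The number of T bases counted with T-to-C changes was low within each region, where only changes kept by the authors' filter count. In Rep.A, 10 of the 12 regions had 1 T base with such changes and 2 had more (ATP5F1C at its first site and SLC25A38). In Rep.B, 9 had 1 and 3 had more, these being both ATP5F1C sites and SLC25A38. The crosslinking efficiency is the fraction of the T bases of a cluster counted with such changes. It ranged from 0.10 for TOMM20 to 0.50 for MRPL37 in each replicate. Both sites had 1 such T base, so these values differ only by their 10 and 2 T bases. The efficiency is not a share of reads with changes.

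Along the mRNA, 7 of the 11 regions that could be placed fell in coding sequence of the longest-coding transcript, or 63.6% (35.4 to 84.8), beside 60.5% of regions of other nuclear genes. The 3′ UTR held 3 (MRPL35, MRPS2 and TOMM20) and the 5′ UTR 1 (MRPS21). With Ensembl canonical transcripts 8 of 11 were in coding sequence, since NDUFA12 was then placed and MRPS21 was not. The coding sites had no common position, from codon 24 of SLC25A51 and SLC25A52 to codon 142 of the 146 codons of NDUFA12. The intervals were too wide to set the family apart from other genes.

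**Figure D4:**
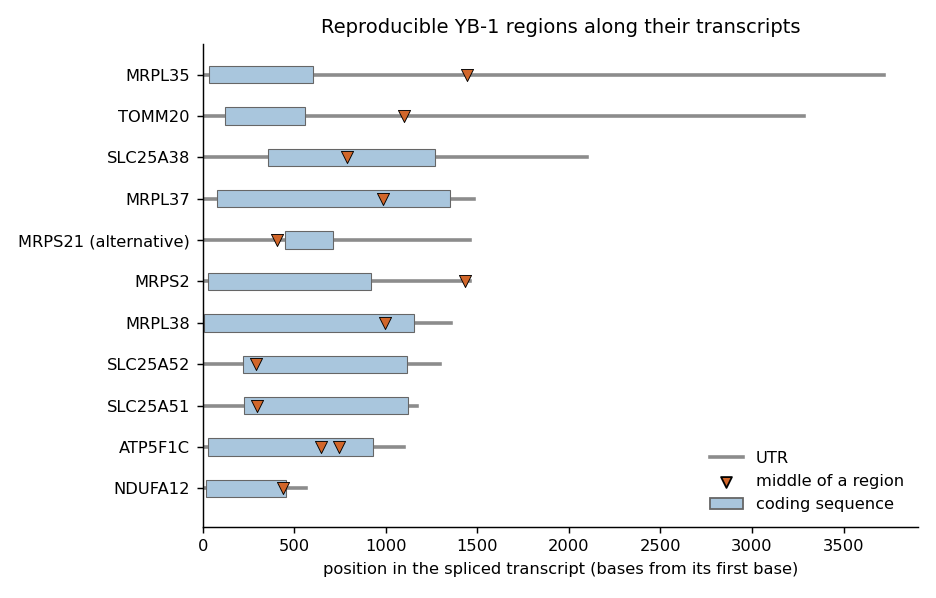
Position of the middle of each of the 12 reproducible regions (triangles) along the canonical transcript of its gene, in bases from the first base, with coding sequence as blue boxes and UTRs as grey lines. MRPS21 is drawn on its transcript with the longest coding sequence, since its site is in an intron of the canonical one, and MRPL35, TOMM20 and MRPS2 have theirs in the 3′ UTR.

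CATC was present in 5 of the 12 regions, 41.7% (19.3 to 68.0), beside 45.3% of the regions of other nuclear genes. These were both ATP5F1C sites, MRPL35, MRPL38 and MRPS21. CACC was present in 7, 58.3% (32 to 80.7), beside 42.5%, in MRPL35, MRPL37, MRPL38, NDUFA12, SLC25A38, SLC25A51 and SLC25A52. At least 1 of the tetramers was in 10 of the 12 regions, beside 70.3% in other genes, and the 2 without were MRPS2 and TOMM20. Of all 22-base windows in the family's own transcripts, 7.09% hold CATC and 7.59% hold CACC, and in windows that end in G the shares are 6.36% and 7.31%. The regions, trimmed by RNase T1 after G, hold few G within them, and the windows were not matched for this. Neither tetramer contains G, so the window shares are not a matched baseline, and enrichment of the tetramers was not tested. The tetramers themselves were common in the mRNAs without a cluster, with a median of 6 CATC and 6 CACC in each of 238 transcripts. The longest-coding transcripts of the 11 genes with a reproducible region had a median of 10 and 8. The NDUFA12 site lies outside the NDUFA12 transcript used for this. Of the 22-base windows of these 11 transcripts, 8.85% hold CATC and 7.11% hold CACC, beside 7.04% and 7.65% in the 238. All 12 regions ended in G, beside 591 of 612 in other nuclear genes (96.6%). The median share of G in a region was 4.55%, beside 4.76% in other nuclear genes.

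The transcripts of the family were shorter than those of other genes, with a median of 1526 bases beside 2830 in other nuclear protein-coding genes. Per 1 Mb of transcript the family had 24.7 reproducible regions, beside 8.75 in other nuclear genes. Nuclear genes of mitochondrial proteins outside the rule had 37.7 per 1 Mb and cytosolic ribosomal protein genes 222. The NDUFA12 region is counted, though it lies outside the transcript whose length was used. The 11 genes with a region had a median transcript length of 1640 bases, and the 238 genes with no cluster had 1493. With canonical transcripts this order turned, with 1358 and 1433 bases. None of these values takes account of how much of each mRNA the cells hold.

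The share of genes with a reproducible region, 4.26% in the family and 2.87% of all protein-coding genes, was set beside 3 other lists. The lists were not matched for mRNA amount, and differences between them were not tested. Nuclear genes of mitochondrial proteins outside the rule, such as enzymes of the citric acid cycle, chaperones and porins, had 6 of 76 genes (7.89%, 3.67 to 16.2). Cytosolic ribosomal protein genes had 21 of 91 (23.1%, 15.6 to 32.7). The protein-coding genes of the mitochondrial genome had 10 of 13 (76.9%, 49.7 to 91.8). In these lists the regions had median coverages of 10.9, 14.3 and 28.9 reads (Rep.A) or 32.5, 23.8 and 81.4 reads (Rep.B).

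Within the complexes built from both genomes, the nuclear genes, grouped by symbol, and the mitochondrial subunit genes gave different counts. Complex I had a reproducible region in 1 of 40 nuclear genes and in 5 of 7 mitochondrial genes. The 25 regions of the mitochondrial ones had a median of 24.0 reads (Rep.A) and 81.6 reads (Rep.B). Complex III had 0 of 10 nuclear genes and 1 of 1 mitochondrial gene, and complex IV 0 of 17 and 3 of 3. For the ATP synthase it was 1 of 20 nuclear genes and 1 of 2 mitochondrial genes. These counts are descriptions, and differences in RNA amount between the genomes were not tested.

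**Figure D5:**
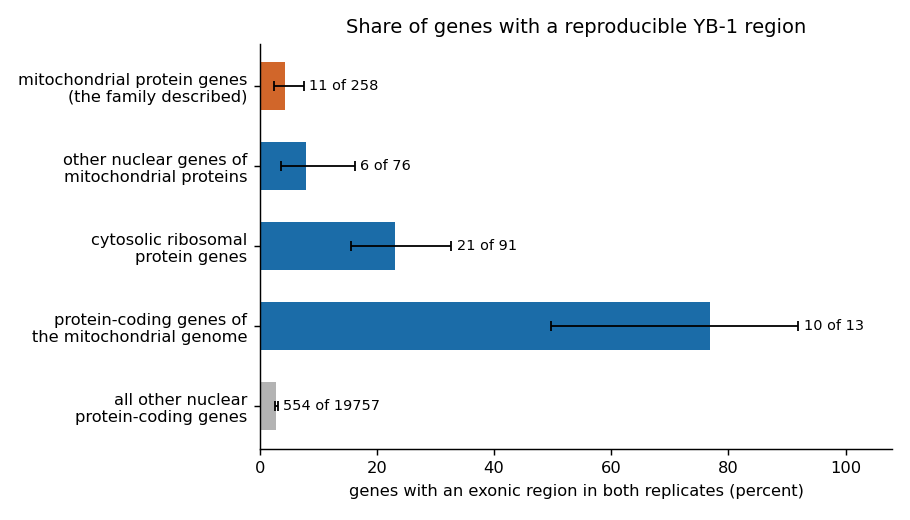
Percent of genes with an exonic region found in both replicates, with 95% Wilson intervals as black bars, for the family (orange), 3 comparison lists (blue) and all other nuclear protein-coding genes (grey), with counts beside each bar. The family at 4.26% was near the 2.80% of other nuclear genes and below the 23.1% of cytosolic ribosomal protein genes.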

How the data were processed

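YB-1 PAR-CLIP of wild-type HEK293T cells was analysed in 2 replicates. Reads were trimmed (cutadapt 2.10) and aligned to hg38 (Bowtie 1.0.0) by the authors, who ran wavClusteR on each library by itself. Mean coverage, the deposited signal, is the average read depth over a cluster with no correction for library size. For each cluster the authors list the count of T bases and the count of T-to-C transitions that their filter kept. The deposited crosslinking efficiency is the fraction of T bases with such transitions, and the deposited log odds are a score, used only in an alternative.

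The deposited sequence of each cluster matched hg38 at its position (1382 of 1382 and 2011 of 2011). It is given on the plus strand, so minus-strand sequences were turned. Genes came from GENCODE release 44, without the 18 protein-coding Y copies of pseudoautosomal genes. A cluster was exonic when it shared at least 1 base with an exon of any transcript on the same strand. Positions were taken from the middle base, in the transcript with the longest coding sequence for shares and in the Ensembl canonical one for exon and codon numbers of single sites unless said, leaving out regions of other genes wider than 60 bases. Exact copies on both strands of hg38 were counted for sequences of 16 to 100 bases.

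The members and lists were chosen with earlier results of these data known. The named genes are all members with a reproducible exonic region, and those with a cluster in Rep.B only were named after their values were seen. With 1 condition and 2 replicates no test was made. Joining, placement and intervals were tested on simulated data. Alternatives changed the overlap, coverage, score, copies, transcripts and replicates. Python 3.11.15, pandas 2.3.3, scipy 1.17.1, pysam 0.24.0 and samtools 1.23.1 were used.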

Additional observations from a re-analysis of the deposited data

Results flagged for a closer look

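Outside the genes of the family, 3 regions found in both replicates held exactly the sequence of one of its mRNAs, which is signal that the counts of the family leave out. The UQCRH and UQCRHL sequence was called in the processed pseudogene UQCRHP2 on chromosome 2, with 4.00 reads in Rep.A versus 22.0 in Rep.B. The SLC25A51 and SLC25A52 sequence was called in the processed pseudogene SLC25A51P3, with 6 and 16.7 reads, which brought the sum over 3 places to 27.9 and 64.1. The TOMM20 sequence was called outside annotated genes on chromosome X, with 10.0 and 21.0 reads, more than the 4.91 and 12.7 reads at TOMM20 itself. Which copies were transcribed was not tested, since the reads of identical copies cannot be told apart.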

How the results depend on the processing

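Of 33 recomputed counts and shares, 31 stayed within 1.5 times of the count given or within the interval of the share. The exceptions were the counts from a single replicate. Leaving out 1 replicate gave 11 to 20 genes with an exonic region, the higher number from Rep.B alone, and 12 to 22 regions. The other alternatives gave 8 to 13 genes and 8 to 14 regions, with 8 genes both for clusters at or above the median score and for sequences with 1 copy in the genome. The share in coding sequence ranged from 57.9% to 72.7%, and the share with CATC from 27.3% with all Rep.B clusters to 55.6% with 1 copy in the genome. With clusters at or above the median score, 8 of 9 Rep.A clusters were found again. The median coverage ranged from 13.5 to 18 reads in Rep.A and from 27.9 to 39.1 in Rep.B, and no call was made on it, since the replicates differ in depth. With 12 regions, shares carry wide intervals, and why 10 Rep.B clusters had no Rep.A cluster was not tested. No paired analysis was possible because there was 1 group and no comparison between groups.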

Other observations

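Among nuclear genes of mitochondrial proteins outside the family, 6 had a reproducible exonic region. VDAC1, a porin of the outer membrane, had 2 of them, with 10.9 and 7.95 reads in Rep.A and 29.5 and 21.4 in Rep.B. The citric acid cycle enzymes CS and MDH2 had 8 and 15.7 reads in Rep.A and 23 and 32.5 in Rep.B, and PDHA1, of pyruvate dehydrogenase, had 16.0 and 45. CHCHD3, of the MICOS complex, had 10.4 and 33.1 reads, and COA4, linked to complex IV assembly, had 13.4 and 37.9.

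On the opposite strand, 2 regions overlapped the span of a gene of the family. One lies opposite MRPS22 in COPB2, with 23 reads in Rep.A only. The other overlaps MRPL32 only through a Rep.A cluster of 18702 bases with a mean of 0.0196 reads. A Rep.B cluster of 33.2 reads in PSMA2 fell inside that cluster, at its end outside the MRPL32 span. That wide cluster reaches from the PSMA2 site to the last base of the MRPL32 cluster of Rep.B, on the other strand.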
